A study of Mus musculus with 35 samples.

Results

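The genes described here are 6 brakes and survival kinases of cytokine signalling in T cells: the feedback inhibitors Socs1, Socs2, Socs3 and Cish, and the serine/threonine kinases Pim1 and Pim2. They were taken as a list of gene symbols, chosen with earlier results of these data known, and all 6 were found among the 38924 genes of the deposited count table. RNA sequencing had been done on total RNA of CD8 T cells of C57BL/6 mice, sorted from brain or spleen as CD3e+CD8+CD44hiCD62Llo, markers by which effector memory cells are recognised. Stimulated cells had been incubated for 2 h with PMA, a phorbol ester that activates protein kinase C, together with ionomycin, which lets calcium into the cell; the pair activates T cells past the antigen receptor. The 35 libraries fell into 7 groups. Aged males gave unstimulated spleen cells (n = 5), stimulated spleen cells (n = 5), unstimulated brain cells (n = 6) and stimulated brain cells (n = 4). Aged females gave unstimulated brain cells (n = 5) and stimulated brain cells (n = 5), and young males gave unstimulated brain cells (n = 5). The labels name no transgene or engineered allele. The sources used here give no ages, no number of mice behind a library and no word on whether unstimulated cells were also incubated. What a p-value measures is therefore the spread between libraries, which may be technical. Titles of all spleen libraries and of stimulated female brain replicates 26 and 27 are written without hyphens and all others with them, and for the tissue comparisons title form and tissue cannot be told apart.

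Cytokine receptors of the common gamma chain and interferon families pass their signal through JAK kinases, which phosphorylate STAT transcription factors. STATs switch on genes that include SOCS family members, whose proteins bind receptors or JAKs and recruit a ubiquitin ligase, so that the signal limits itself. Cish, Socs2 and Socs1 are known as targets of STAT5, and Socs3 of STAT3. Pim1 and Pim2 are also known STAT5 targets, and their proteins are kinases that are active once made and favour survival and growth of lymphocytes.

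The STAT consensus TTCNNNGAA was searched on both strands in RefSeq promoter windows (build GRCm38.p6, 250 bases before to 50 after each gene's start), because it is the textbook element of this feedback loop. Promoter sequences were matched for 5 of the 6 genes, with 2 windows for Pim1, and Socs2 had no entry. Matches lay in the windows of Cish and Socs3, shown with the matching letters in capitals.
Cish: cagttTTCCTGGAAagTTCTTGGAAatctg
Socs3: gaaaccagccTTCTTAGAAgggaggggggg
The Cish stretch is chr9:107296654-107296683 on the plus strand. It holds 2 matches, whose first bases are at positions 1 and 12 with the RefSeq start base counted as 1. Both lie in exon sequence that GENCODE M21 annotates as untranslated. The Socs3 stretch is chr11:117969501-117969530 on the minus strand, and its match begins 154 bases upstream of the RefSeq start, in an intron by the GENCODE annotation. At least 1 match was found in 8.29% of 32817 promoter windows of this length, and at least 2 in 0.457%. The windows of Socs1, Pim1 and Pim2 held none of these letters. The AP-1 element TGANTCA was in none of the members' windows and in 7.81% of all windows. The NFAT core GGAAA, which overlaps both Cish STAT matches, occurred 4 times in Cish, 3 times in 1 Pim1 window and once each in Socs1 and Socs3, and at least once in 61.3% of all windows. A match describes the letters and shows no binding.

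Library totals ran from 1.16 to 24.97 M counts. Stimulated brain libraries stood apart from all others: they had 1.16 to 9.2 M counts, 2271 to 6769 detected genes against 6456 to 15174 elsewhere, and 38.5% to 69.7% mitochondrially encoded counts against 8.28% to 20.8%. The sorted cell type was checked on 8 T cell markers including Cd3e and Cd8a, whose summed level was 2974 to 9004 CPM (counts relative to TMM-scaled library totals) outside stimulated brain. In stimulated brain it was 129 to 1243 CPM in males and 1395 to 2185 CPM in females, while 10 choroid plexus, neuron, glia and vessel markers summed to 92.1 to 1240 CPM in males and 377 to 1088 CPM in females, against 37.5 to 673 CPM in unstimulated brain. Of these 10, Cldn5, Mog, Rbfox3, Aqp4, Gfap and Snap25 were at 0 in every stimulated male brain library. The part of these differences in the results from stimulated brain was not tested. In bulk samples, fewer cells of a type and less RNA per cell cannot be told apart.

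Pim1 was the most abundant of the 6 genes per length in unstimulated spleen, at 11.6 ± 3.30 TPM (SD, n = 5), followed by Cish at 6.44 ± 4.13 TPM and Pim2 at 5.38 ± 1.48 TPM. Socs3, Socs2 and Socs1 had 2.90 ± 1.17, 2.78 ± 2.49 and 2.68 ± 1.11 TPM, which differed by less than their spread. The length that RSEM used for Cish ran from 371 to 3760 bases between libraries, so its TPM depends on how reads were shared among its transcripts. Across the 7 groups, the order of levels differed from gene to gene. Socs3 was highest in unstimulated male brain (52.2 ± 13.1 CPM in young and 52.0 ± 16.7 CPM in aged mice), Pim1 in stimulated spleen (269 ± 120 CPM), and Socs1 in stimulated female brain (18.0 ± 19.4 CPM). In no pair of groups next to each other in a gene's order did the levels differ past the threshold (two-sided exact permutation test on log2(CPM + 1), 36 pairs, Benjamini-Hochberg adjusted p of at least 0.286). Ranges of neighbours overlapped in 35 of the 36 pairs, and the exception was Socs3 between unstimulated female brain and unstimulated spleen (exact p = 0.00794, adjusted p = 0.286). With groups of 4 to 6 the smallest p this test can give is 0.00216 to 0.00794. A single pair at that limit cannot pass after adjustment over 36 pairs, and the pairs were those nearest in mean. The missed threshold therefore says little about whether levels differed.

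**Figure D1:**
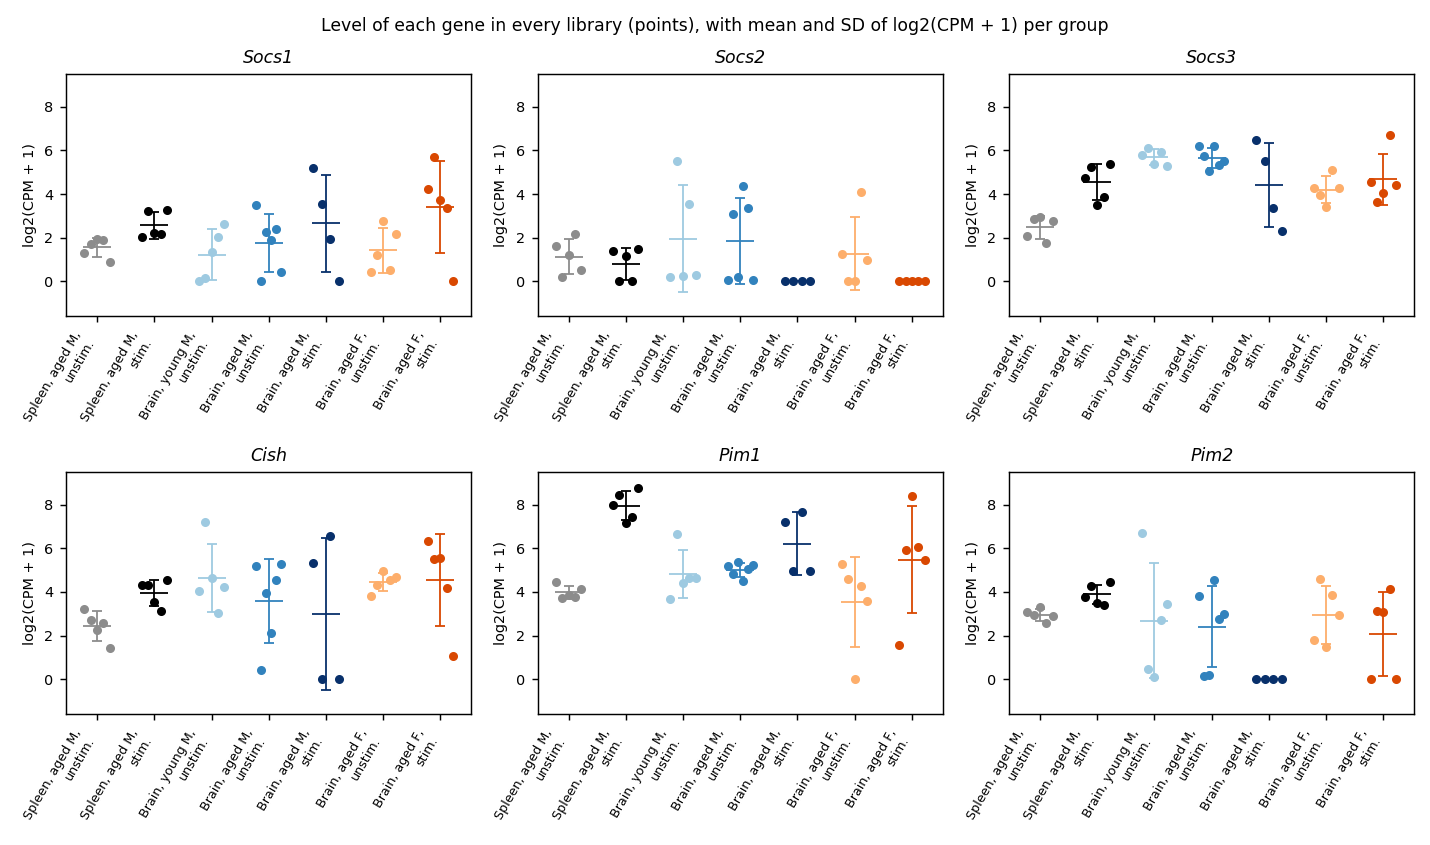
Level of each of the 6 genes in every library as log2(CPM + 1), one panel per gene and one column per group (M male, F female); horizontal marks and bars are the mean and SD on that scale. Pim1 in the 5 stimulated spleen libraries (141 to 428 CPM) sits above all unstimulated libraries of either tissue, and Socs2 is at 0 in all 9 stimulated brain libraries.

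Stimulation of spleen cells was followed by higher RNA of 4 of the 6 genes, and the kinase Pim1 changed most. Pim1, which lies at chr17:29490753-29496112 (ENSMUSG00000024014), had 21.1, 12.02, 13.6, 12.8 and 16.3 CPM in unstimulated spleen and 254, 348, 141, 173 and 428 CPM in stimulated spleen. The groups did not overlap, which held for 10.9% of genes tested in this direction. The log2 fold change was 4.12 ± 0.32 (SE; edgeR's quasi-likelihood test, Benjamini-Hochberg adjusted p = 1.9e-06). Among all 11107 genes tested, 18.7% passed the threshold of 0.05 (12.6% higher and 6.12% lower), against 4 of the 6 members, all higher.

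Pim2 (chrX:7878262-7883432, ENSMUSG00000031155), the related kinase, had 7.45, 6.67, 8.91, 4.91 and 6.56 CPM in unstimulated and 12.7, 18.5, 10.4, 9.68 and 20.6 CPM in stimulated spleen. Its groups did not overlap either, but the difference was small, with a log2 fold change of 1.03 ± 0.28 (edgeR adjusted p = 0.0223). The call was lost without unstimulated replicate 31, 33 or 34 or stimulated replicate 37, with adjusted p of 0.0578, 0.0583, 0.0544 and 0.0606. On unscaled totals the Pim2 groups overlapped and the ratio of means was 1.27 in place of 2.08. The ratios of Pim1, Socs3, Cish and Socs1 were then 10.7, 3.15, 1.93 and 1.58 in place of 17.7, 5.21, 3.20 and 2.64. Leaving the totals unscaled moved the median difference of all genes from 0.02 to -0.64 (log2) in this comparison, since TMM factors were 1.63 to 1.76 in unstimulated and 0.906 to 1.12 in stimulated spleen.

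Of the feedback inhibitors, Socs3 (chr11:117966079-117970047, ENSMUSG00000053113) rose from 3.24, 6.14, 6.68, 2.43 and 5.72 CPM to 25.8, 36.4, 10.4, 13.7 and 39.97 CPM. The log2 fold change was 2.36 ± 0.42 (edgeR adjusted p = 0.00176), and the groups did not overlap on scaled or unscaled totals. Cish (chr9:107296026-107302784, ENSMUSG00000032578), whose protein blunts STAT5 and antigen receptor signals, had 8.42, 5.55, 3.84, 4.91 and 1.69 CPM before and 19.1, 18.7, 10.5, 7.82 and 22.1 CPM after stimulation. It rose by a log2 fold change of 1.65 ± 0.41 (edgeR adjusted p = 0.0136), although stimulated replicate 39 lay within the unstimulated range. Cish overlaps Gm17041 on the opposite strand, and without a stated strand their reads cannot be told apart. The sum of both was 5.56 ± 2.66 CPM in unstimulated and 19.6 ± 8.75 CPM in stimulated spleen.

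Socs1 and Socs2 did not pass the test in spleen. Socs1 (chr16:10782240-10785536, ENSMUSG00000038037), the main inhibitor of interferon signalling, had 1.49, 2.31, 2.85, 2.74 and 0.843 CPM against 3.04, 8.22, 3.66, 3.45 and 8.68 CPM. All stimulated libraries were above all unstimulated ones on scaled totals, while on unscaled totals the groups overlapped. The log2 fold change was 1.37 ± 0.47 (edgeR adjusted p = 0.0608). It passed with DESeq2 (adjusted p = 0.0217) and without stimulated replicate 36 or 38 (edgeR adjusted p = 0.0462 and 0.0497). Socs2 (chr10:95385362-95417180, ENSMUSG00000020027) was near the limit of detection, with 0 to 90 counts per spleen library and a log2 fold change of -0.69 ± 1.05 (edgeR adjusted p = 0.702).

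Among the stimulated spleen libraries, replicates 38 and 39 were among the lower 3 for Socs1, Socs3, Cish, Pim1 and Pim2 on scaled and unscaled totals. Replicate 40 was highest for all of these on scaled totals but only for Pim1 on unscaled ones. A fit that took its spread from all 35 libraries called none of the 6 genes in this comparison (Pim1 adjusted p = 0.117), with 53 genes called in all. The B cell markers Cd79a and Ms4a1 rose with stimulation, and a list of 5 such markers summed to 128 to 412 CPM before and 160 to 351 CPM after. Their part in the members' changes was not tested.

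Around these genes, the cytokine pathway itself changed in stimulated spleen. Of 17 cytokine genes, 4 could be tested and 3 rose: Ifng, the gene of interferon gamma, from 13.6 ± 3.65 to 2303 ± 697 CPM, Il10 from 0.197 ± 0.343 to 51.0 ± 14.5 CPM and Il21 from 0.394 ± 0.577 to 91.8 ± 45.8 CPM (edgeR adjusted p = 3.9e-09, 4.69e-06 and 4.38e-05). Of 18 receptor chains tested, Il4ra, Il21r and Il10ra rose and Il7r, the interleukin 7 receptor, fell (edgeR log2 fold change -0.84 ± 0.20, adjusted p = 0.0102). Of the JAK and STAT genes, Stat3 and Jak2 rose by 0.87 ± 0.15 and 0.66 ± 0.16 on the log2 scale, while Tyk2 fell by 1.08 (edgeR adjusted p = 0.00114, 0.00963 and 0.00296).

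Of the 5 remaining SOCS and Pim genes, Pim3 rose with a log2 fold change of 3.42 ± 0.53 (edgeR adjusted p = 0.00075), from 1.28 ± 0.717 to 13.9 ± 8.17 CPM, and Socs4 to Socs7 did not pass. The list of 12 other STAT targets moved in both directions. Myc, a growth regulator, rose from 26.2 ± 6.39 to 717 ± 442 CPM, Bcl6 from 7.96 ± 1.85 to 39.04 ± 19.5 CPM and Bcl2l1, the gene of the survival protein Bcl-xL, from 8.94 ± 1.18 to 30.99 ± 10.9 CPM, with Mcl1 and Tbx21 also higher. Bcl2 and Ccnd2 fell by 1.196 and 0.86 on the log2 scale (edgeR adjusted p = 0.00136 and 0.0016). Of 8 genes of Pim substrates, Cdkn1a and Foxo1 rose and 6 did not pass, and of 10 other brakes on the pathway Sh2b3 (Lnk) and Ptprc (CD45) rose. The median log2 fold change was 1.51 over the 6 members, 0.53 over the STAT targets, 0.00 over the JAK and STAT genes and -0.07 over all genes tested.

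In unstimulated cells of aged males, brain differed from spleen in 1 of the 6 genes, Socs3, against 7.37% of 11040 genes tested (3.35% higher in brain). Socs3 had 32.1 to 72.0 CPM (median 48.3) in the 6 brain libraries, and 2.43 to 6.68 CPM in the 5 spleen libraries listed above. The groups did not overlap, which held for 4.48% of genes in this direction. The log2 fold change was 3.24 ± 0.63 (edgeR adjusted p = 0.00485). On unscaled totals the ratio of means was 6.51 in place of 10.7, and the median difference of all genes was -0.02 in place of 0.70 (log2). The same gene was high in young male brain, with 54.5, 68.9, 40.2, 59.6 and 37.9 CPM, and lower in female brain, with 18.6, 14.4, 9.56, 33.9 and 18.2 CPM. All 16 unstimulated brain libraries were thus above all 5 unstimulated spleen libraries.

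The other 5 genes did not pass between the tissues. Pim1 had 21.5 to 41.0 CPM in brain (median 33.4) and a log2 fold change of 0.90 ± 0.58 (edgeR adjusted p = 0.52). Its scaled levels did not overlap between tissues and DESeq2 called it (adjusted p = 0.0211), but on unscaled totals the groups overlapped with a ratio of means of 1.27. Cish had 0.352 to 38.3 CPM in brain (log2 fold change 1.78 ± 1.04, edgeR adjusted p = 0.459), and with Gm17041 added its brain level was 33.3 ± 22.3 CPM. Socs1, Socs2 and Pim2 had log2 fold changes of 0.62 ± 1.27, 1.87 ± 1.58 and 0.07 ± 1.17. Their intervals reach beyond a log2 difference of 2 in favour of brain, so differences of that size lie within the error.

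Other genes of the pathway were also higher in unstimulated brain. Receptor chains Il4ra, Ifngr1, Il21r and Il2rb passed of 18 tested, with Ifngr1, a chain of the interferon gamma receptor, at 668 ± 111 CPM against 147 ± 27.8 CPM (edgeR adjusted p = 2.23e-05). Ifng itself was higher in brain, with 155 ± 120 CPM against 13.6 ± 3.65 CPM (edgeR adjusted p = 0.00505). Of 12 STAT targets Bcl2 and Ccnd2 were higher, whereas none of 10 other brakes, 5 remaining SOCS and Pim genes or 8 Pim substrate genes passed. Of 12 immediate early genes, the first genes that activation switches on, 8 were higher in unstimulated brain, and their summed level was 2501 to 6059 CPM against 185 to 223 CPM in unstimulated spleen. Markers of other cells were uneven in these brain libraries, and some were higher in spleen. The 10 choroid plexus, neuron, glia and vessel markers summed to 67.7 to 673 CPM (median 234) against 55.2 to 71.6 CPM in spleen, and Ttr, a choroid plexus gene, was the 1 of 4 tested that passed, higher in brain, while Cldn5, Mog and Rbfox3 were at 0 throughout. Of 12 microglia markers, whose sum was 9.31 to 464 CPM (median 133) against 99.3 to 143 CPM, Sall1, Trem2 and Aif1 were at 0 in all 6 brain libraries. The 4 neutrophil and monocyte markers summed to 0.607 to 441 CPM (median 4.77) against 6.00 to 23.6 CPM. The 5 B cell markers summed to 0.38 to 27.9 CPM in brain (median 2.42) against 128 to 412 CPM in spleen. Ighm of the B cell markers, Ikzf2 of the CD4 and regulatory T cell markers and Klra7 of the NK cell markers were called lower in brain. Their part in the Socs3 difference was not tested.

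Set beside stimulated spleen, unstimulated brain of aged males had a lower level of Pim1 and no called difference in the other 5 genes (3.84% of 9926 genes called, 2.39% lower). All 6 brain libraries (21.5 to 41.0 CPM) were below the 5 stimulated spleen libraries (141 to 428 CPM), with a log2 fold change of -3.16 ± 0.37 (edgeR adjusted p = 0.000206), the 11th smallest p of all genes. The groups did not overlap in this direction for 5.18% of genes. Socs3 was 52.0 ± 16.7 CPM in unstimulated brain and 25.2 ± 13.2 CPM in stimulated spleen. That difference did not pass (log2 fold change 0.95 ± 0.57, 95% interval -0.17 to 2.08, edgeR adjusted p = 0.488), and 4 of 6 brain libraries lay above all stimulated spleen libraries. Pim1 and 9 of 12 immediate early genes were thus lower in unstimulated brain than in stimulated spleen, as was Myc, at 25.4 ± 19.8 against 717 ± 442 CPM. This comparison and the one between unstimulated tissues share the brain libraries.

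**Figure D2:**
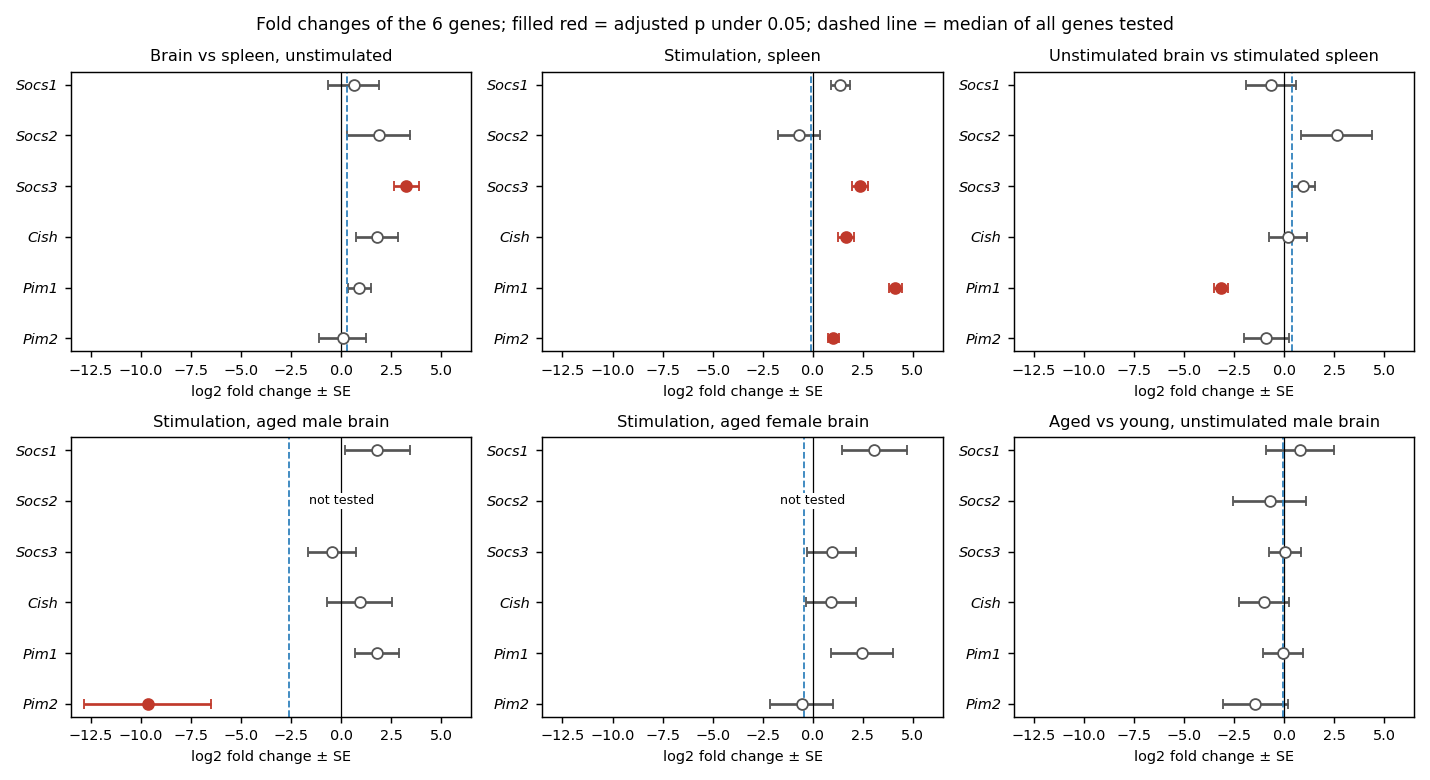
Log2 fold change of each gene with its SE in 6 comparisons; filled points passed an adjusted p of 0.05, open points did not, and the dashed line is the median of all genes tested. Socs3 stands at 3.24 between unstimulated tissues and 2.36 for stimulation in spleen, Pim1 at 4.12 for stimulation in spleen, and no gene passed with age; the Pim2 value in male brain comes from 0 counts in all 4 stimulated libraries.

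In stimulated brain no member was called higher. For Pim1 the stimulated aged male libraries had 148, 30.6, 204 and 30.02 CPM, against 21.5 to 41.0 CPM unstimulated. The 2 libraries with high values and the 2 within the unstimulated range gave a log2 fold change of 1.78 ± 1.11 (edgeR adjusted p = 0.234). Stimulated female brain had 1.97, 60.003, 332, 65.2 and 42.5 CPM of Pim1 and unstimulated female brain 37.3, 22.99, 0, 18.6 and 11.1 CPM. There, 4 of 5 stimulated libraries were above all unstimulated ones on scaled totals, and the log2 fold change was 2.47 ± 1.54 (edgeR adjusted p = 0.505). Replicate 25 alone held 66.2% of the summed Pim1 level of its group, and the mean without it was 42.4 in place of 100.4 CPM. On unscaled totals only replicate 25 (162 CPM) was above the highest unstimulated female library (56.4 CPM). The female ratio of means was then 1.97 in place of 5.58.

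Pim2 was the 1 member called in male brain, among 38.1% of 7540 genes tested (36.4% lower), which is no more than the share of all genes. All 4 stimulated libraries had 0 counts, and unstimulated brain had 12.9, 0.117, 0.132, 22.5, 5.82 and 6.86 CPM. Against a floor of 3 counts per library it was at least 5.04-fold lower (edgeR adjusted p = 0.0275 for the fitted model). Unstimulated replicates 8 and 9 were themselves below the mean floor of 1.60 CPM, and without unstimulated replicate 10 the bound was 3.23-fold. The call was lost without any 1 of stimulated replicates 19, 20, 21 and 22 (adjusted p = 0.0671, 0.0654, 0.0623 and 0.0622) and without the libraries under 2.5 M counts (adjusted p = 0.151). With 1 library left out, Pim2 was tested in only 6 of 10 fits and kept its call in 2. Where it was not tested it failed the count filter, which it could pass only through unstimulated libraries. In females Pim2 was at 0, 7.62, 7.37, 16.5 and 0 CPM after stimulation and at 9.62 ± 9.06 CPM before (log2 fold change -0.55 ± 1.57, edgeR adjusted p = 0.917).

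Socs2 had 0 counts in all 9 stimulated brain libraries, which together hold 39.99 M counts. The floor of 3 counts per library allows up to 0.571 to 3.002 CPM in the male and 0.67 to 3.19 CPM in the female libraries. Against it Socs2 was at least 3.80-fold lower in males and at least 2.71-fold lower in females, comparisons for which it failed the count filter. These bounds rest on single libraries: without unstimulated male replicate 10 the bound was 2.13-fold, and without unstimulated female replicate 16 the mean of 0.586 CPM was under the floor of 1.36 CPM, so no bound remained. Of the unstimulated libraries, 3 of 6 in males and 3 of 5 in females were below the floor. With no filter it did not pass (edgeR adjusted p = 0.087 and 0.118). These floors cover counting error only.

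Socs3 was above 3 counts in all 9 stimulated brain libraries and Socs1 and Cish in 7 and 6 of them, with no called change. Socs3 had 87.4, 45.0, 9.28 and 4.002 CPM in males and 22.8, 11.6, 15.4, 102 and 20.2 CPM in females, that is from the spleen level to above the unstimulated brain level. Its log2 fold changes were -0.47 ± 1.19 and 0.94 ± 1.21 (edgeR adjusted p = 0.802 and 0.793), and the latter turned to -0.33 among libraries with hyphenated titles. On unscaled totals the female ratio of means was 0.83 in place of 1.82. Cish was at 39.2, 0, 95.1 and 0 CPM in males and 80.9, 45.1, 46.0, 17.2 and 1.06 CPM in females. Its lowest values were in replicates 20, 22 and 27, which are the 3 libraries under 2.5 M counts. Gm17041, the overlapping gene, held 146 CPM in 1 male library, and Cish made up 47.4% of the sum of both in stimulated male brain against 87.7% in unstimulated spleen. Socs1 was at 35.8, 10.5, 2.78 and 0 CPM in males and 17.8, 50.7, 12.3, 9.32 and 0 CPM in females. In females 4 of 5 stimulated libraries were above all unstimulated ones (0.342 to 5.81 CPM) on scaled totals, with a log2 fold change of 3.08 ± 1.60 (edgeR adjusted p = 0.391). On unscaled totals only replicates 23 and 24 (12.8 and 25.2 CPM) were above the highest unstimulated female library (7.21 CPM). The female ratio of Socs1 means was then 3.35 in place of 7.87. In females 0 of 5 tested members passed, against 6.09% of 6305 genes, and the upper ends of their 95% intervals ran from 2.52 to 6.22 on the log2 scale.

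Over all genes tested the median log2 fold change of stimulation was -2.62 in male brain and -0.41 in female brain. Of 12 immediate early genes, 3 rose in male brain and 9 in female brain, among them Egr2 and Egr3 in both, and Ifng rose in female brain from 179 ± 93.0 to 1516 ± 985 CPM (edgeR adjusted p = 0.0147). Of the remaining SOCS and Pim genes, Pim3 rose in male brain, from 1.67 ± 2.15 to 56.2 ± 67.0 CPM (edgeR log2 fold change 5.14 ± 1.72, adjusted p = 0.0271), and Socs6 fell to 0 counts in all 4 libraries. Of 8 T cell markers 5 fell in male brain, Cd3e to 17.6 ± 19.01 from 437 ± 178 CPM. All 3 tested genes of the ligase that SOCS proteins recruit (Cul5, Tceb1, Tceb2) also fell there. Of 11 JAK and STAT genes, Jak2, Stat2 and Stat4 fell, which is no more than the 36.4% of all genes tested that were lower.

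**Figure D3:**
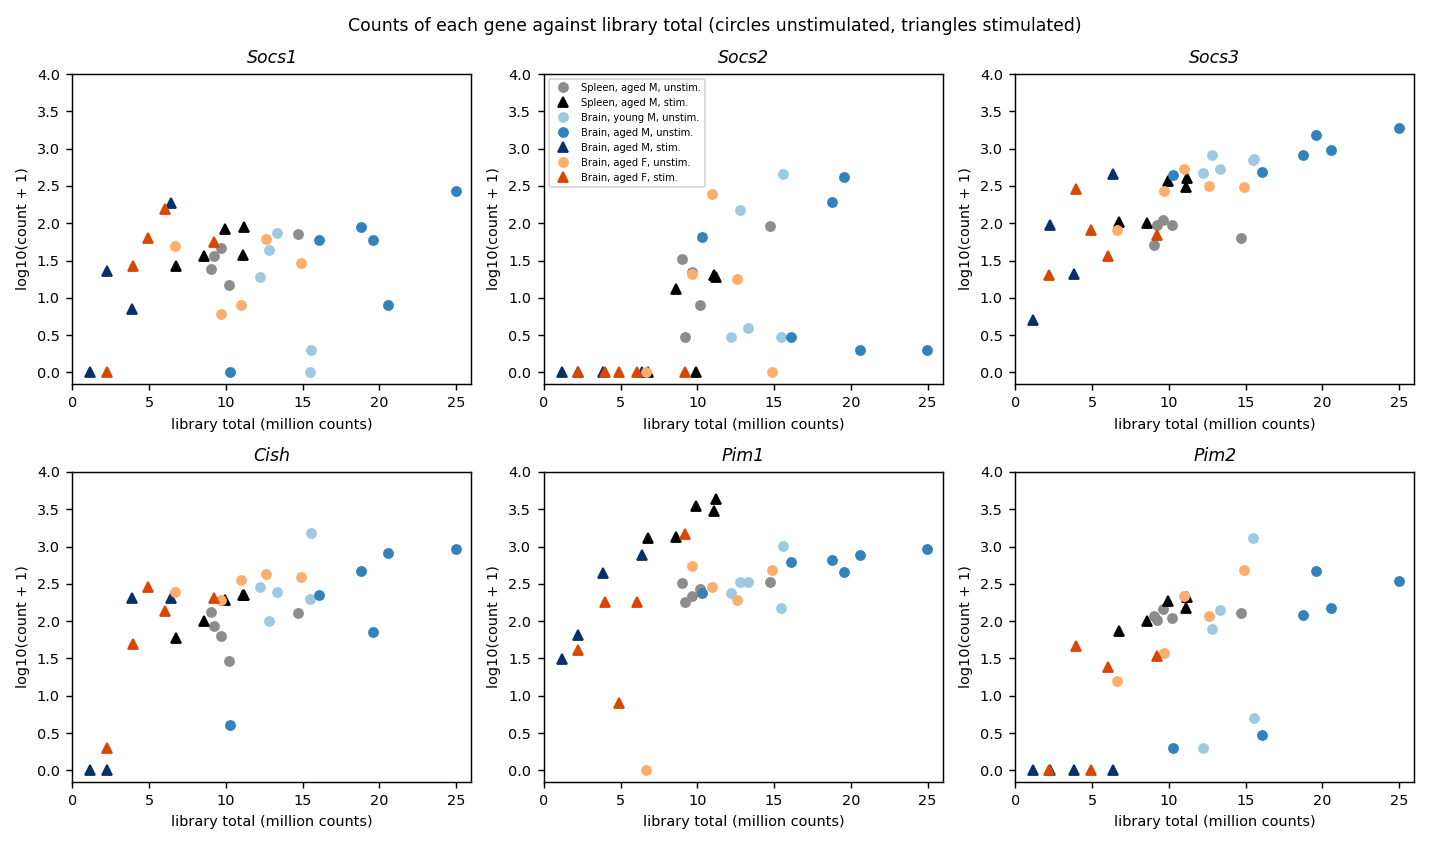
Counts of each gene as log10(count + 1) against the library total in M counts, with circles for unstimulated and triangles for stimulated libraries, coloured by group. Stimulated brain libraries lie at 1.16 to 9.2 M counts; Socs2 has 0 counts in all 9 and Pim2 in 6 of them, and Pim1 of stimulated spleen has 1307 to 4339 counts.

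Between the stimulated tissues of aged males, Pim2 was at least 8.99-fold lower in brain (edgeR adjusted p = 0.000431), against 48.5% of 9135 genes called (46.7% lower). The remaining 4 tested genes did not pass. Pim1 had a log2 fold change of -1.18 ± 0.81 (edgeR adjusted p = 0.282), with 2 of 4 brain libraries below all spleen libraries, and on unscaled totals all 4 were below. On scaled totals the groups did not overlap in this direction for 54.7% of genes. Cish had 1.31 ± 1.53 (adjusted p = 0.546), which became 2.22 with an adjusted p of 0.0146 without the libraries under 2.5 M counts.

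The difference between the responses to stimulation in brain and spleen was tested as an interaction over the 4 groups of aged males. Socs3 and Pim1 passed, with differences of -2.88 ± 1.08 and -2.44 ± 0.89 on the log2 scale (edgeR adjusted p = 0.0404 and 0.0348). Pim2 also passed (edgeR adjusted p = 0.00221), but not with voom (adjusted p = 0.0956). With stimulated brain set to the floor of 3 counts per library, its change in brain was at least 10.5-fold below that in spleen, and at least 6.74-fold without unstimulated brain replicate 10. Of all 12117 genes 37.8% passed, 35.7% with a lower log2 change in brain than in spleen, and the median of all genes was -4.04, so Socs3 and Pim1 lay nearer to 0 than the median gene. With DESeq2 size factors Socs3 and Pim1 were -2.11 and -1.75 and did not pass (edgeR adjusted p = 0.119 and 0.103), with the DESeq2 test Socs3 did not pass (adjusted p = 0.0607), and without the libraries under 2.5 M counts they were -2.25 and -1.46 (adjusted p = 0.122 and 0.0961). Both calls were also lost without unstimulated spleen replicate 31, 32, 33 or 34 or stimulated spleen replicate 36, 37 or 40. Socs1 and Cish had 0.41 ± 1.67 and -0.82 ± 1.69. Socs2 did not pass (edgeR adjusted p = 0.0601). Its fitted difference of -8.61 ± 3.52 rests on 0 counts in stimulated brain and is no measured size. No member differed between sexes in its response in brain, against 2.6% of 10026 genes called, and the Pim2 difference of 8.77 ± 3.67 had an edgeR adjusted p of 0.128.

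No member was called for age or sex by edgeR in the compared groups. Between aged and young unstimulated male brain 0% of 8068 genes passed edgeR's test, 374 had an unadjusted p under 0.05 and DESeq2 called 459 and voom 1, none of them a member. The Socs3 levels had a log2 fold change of 0.03 ± 0.81 and a 95% interval of -1.55 to 1.62. The young group held single high libraries for 4 genes: replicate 3 had 145 CPM of Cish, 44.2 CPM of Socs2 and 98.5 CPM of Pim1, and replicate 2 had 103 CPM of Pim2, or 86.5% of the summed level of its group. Without those libraries the young means of Cish, Socs2, Pim1 and Pim2 were 16.1, 2.82, 20.1 and 4.002 CPM in place of 41.8, 11.1, 35.7 and 23.7 CPM. Between unstimulated female and male aged brain 0.15% of 8691 genes passed. The difference of Socs3 was -1.31 ± 0.81 (edgeR adjusted p = 0.999), with 4 of 5 female libraries below all male ones. Between stimulated female and male brain 0% of 3159 genes passed edgeR's test, with 158 at an unadjusted p under 0.05, 247 called by DESeq2 and 0 by voom. A fit over all 35 libraries called 2560 genes there, 1 of them a member.

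The 6 genes differed in how evenly they were detected in unstimulated brain. Socs3 had 79 to 1889 counts in all 16 libraries, with a coefficient of variation of 32.1% in aged males, 25.1% in young males and 48.2% in females. Pim1 varied by 21.4%, 99.2% and 77.1% in the same groups. The median over genes with a mean of at least 5 CPM was 98.3%, 109% and 85.4% in these groups. Socs2 instead had at most 3 counts in 8 of the 16 libraries and 17 to 459 counts in the other 8. Pim2 had at most 3 counts in 3 libraries and up to 1315 counts in another. Socs2 was above 3 counts in 7 of 10 spleen libraries but never exceeded 90 counts there.

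Levels of the 6 genes were weakly related to each other over the 35 libraries, with a largest Pearson correlation of log2(CPM + 1) of 0.36, between Socs1 and Cish. These libraries share tissue, stimulation and depth differences, so the values are descriptions. Among 6054 genes with a mean of at least 10 CPM, Pim1 was most like Fosb (0.74), Nfkbia (0.72) and Maff (0.72). Socs3 was most like Ppp1r16b (0.77), Sik1 (0.73) and Klf6 (0.72), Cish most like Zcchc6 (0.70), Rgs2 (0.69) and Vcpip1 (0.68), and Socs1 most like Dedd2 (0.72), Hsph1 (0.65) and Zfp703 (0.64). The nearest genes were Tgs1, Brf1 and Pcm1 for Pim2 (0.79, 0.79 and 0.78) and Sar1a, Mettl16 and AI504432 for Socs2 (0.68, 0.66 and 0.64).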

How the data were processed

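RNA of sorted CD8 T cells was sequenced in 35 libraries, grouped by the sample labels. Reads were aligned with Bowtie2 2.2.0 and quantified with RSEM 1.2.12 on mm10, as the submitters' processing notes record. Annotation release and strand setting: not given in the sources used here. The authors deposited, per the file headers, expected counts, TPM and FPKM of each library. The authors' series table holds whole-number counts, which differ from the deposited expected counts by at most 0.5, and these counts were tested. TPM was used only for levels between genes, and the deposited FPKM was not used.

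In R 4.3.3, edgeR 4.0.16 (filterByExpr by group, minimum count 10, TMM, robust quasi-likelihood fit and test, two-sided) was fitted to the compared groups only, with Benjamini-Hochberg adjustment over all genes tested and a threshold of 0.05. The SE was derived from the fold change and the F value of the test. The 95% intervals use the normal distribution and are narrower than the test's own degrees of freedom would give. Levels are CPM on totals scaled by TMM over all libraries. Alternatives were DESeq2 1.42.0 size factors and test, limma 3.58.1 voom with quality weights, other filters, all libraries in the fit, rounded expected counts, no mitochondrial genes, title forms and each library left out; leaving out stimulated brain libraries under 2.5 M counts was chosen after seeing the data. The fit was tested on simulated counts, with log2 changes of fixed sizes planted in a small part of the genes. It recovered none of these for stimulation in male brain or the interaction of tissue, and part in the other comparisons tried. For male brain and that interaction a missed threshold therefore says little. The simulation covers only the planted sizes, and in the data themselves 38.1% and 37.8% of genes passed in male brain and the interaction. Gene positions were read from GENCODE M21 (GRCm38, that is mm10).

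The 6 genes, the pathway lists and markers were chosen with earlier results of these data known. From each pathway list the text names up to 3 genes per direction by size of change, if past the threshold and averaging 5 CPM or more; others named were chosen after their values were seen. Some genes of these lists are not reported here.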

Additional observations from a re-analysis of the deposited data

Results flagged for a closer look

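The differences between brain and spleen in the response to stimulation were -2.88 for Socs3, -2.44 for Pim1 and -10.7 for Pim2 on the log2 scale, and are listed because the test of the difference itself passed. The Pim2 value is a fitted one over 0 counts in all 4 stimulated male brain libraries and is no measured size; with the floor of 3 counts per library the difference was at least 10.5-fold. In the same test 35.7% of all genes passed in this direction and the median gene stood at -4.04. Stimulated male brain libraries had 1.16 to 6.39 M counts and 129 to 1243 CPM of T cell markers, and the part of these in the differences was not tested. Single libraries stood apart from their group in CPM by Dixon's criterion in 7 of 39 sets of levels, and in 0 on the log2(CPM + 1) scale. In young male brain these were replicate 3 for Socs2 (44.25 CPM, others up to 10.7), Cish (144.7, others up to 24.3) and Pim1 (98.52, others up to 24.1), and replicate 2 for Pim2 (102.5, others up to 9.92). In unstimulated female brain it was replicate 16 for Socs2 (16.02, others up to 1.37). In stimulated female brain they were replicate 26 for Socs3 (102.5, others up to 22.8) and replicate 25 for Pim1 (332, others up to 65.2). Chance alone flags about 1 in 20 groups.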

How the results depend on the processing

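In most comparisons the number of called members was unchanged by most settings, with the exceptions below. For stimulation in male brain it changed in 5 of 9 settings, and in 8 of 10 fits with a library left out it was 0. With the DESeq2 test it was 2 between unstimulated tissues (1 in the fit used), 5 for stimulation in spleen (4), 2 in male brain (1) and 2 for the interaction of tissue (3), where voom also gave 2. With all 35 libraries in the fit it was 0 for stimulation in spleen (4), 2 in male brain (1), 1 in female brain (0), 0 between unstimulated brain and stimulated spleen (1), 1 between sexes after stimulation (0), 1 for the interaction of tissue (3) and 1 for that of sex (0). In male brain it was 0 with voom, with no low-count filter and without the libraries under 2.5 M counts. Without those libraries it was 2 between stimulated tissues (1). For the interaction of tissue it was 1 with DESeq2 size factors, with no filter and without those libraries. Leaving out single libraries gave 3 to 5 for stimulation in spleen, 0 to 1 in male brain and 1 to 4 for the interaction of tissue.

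Of 528 values of single genes under settings other than a left-out library, 486 kept direction and call and 20 changed sign; of 738 with a library left out, 664 and 42. No value that changed sign had passed the test. With voom these were Socs1 (-0.22) and Pim2 (-0.97) between unstimulated tissues, Cish for stimulation in male brain (-1.68), Socs3 (-0.28) and Cish (-1.30) between stimulated tissues, Cish between unstimulated brain and stimulated spleen (-0.077), Pim1 (0.37) and Pim2 (0.36) with age, Socs3 between sexes after stimulation (0.099) and Cish in the interaction of sex (1.60). For Socs3 with age they were -0.041, -0.045 and -0.0061 with DESeq2 size factors, the DESeq2 test and all libraries. With hyphenated titles only they were Socs3 in female brain (-0.33) and Pim1 between sexes (0.034), and without the small libraries Cish between sexes (-0.62) and in the interaction of tissue (0.34). In the interaction of sex, Pim1 was -0.091 with DESeq2 size factors and -0.091 with the DESeq2 test, which gave Socs2 -0.47. The causes were not tested, apart from the fewer libraries or genes that a setting leaves.

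With single libraries left out, the following log2 values changed sign and are given as ranges. Between unstimulated tissues, Socs1 ran from -0.047 to 0.88 and Pim2 from -0.60 to 0.33. For stimulation in male brain, Cish ran from -0.55 to 1.28. For stimulation in female brain, Socs3 ran from -0.25 to 1.24 and Pim2 from -1.43 to 0.069. Between stimulated tissues, Socs1 ran from -0.086 to 1.73, Socs3 from -0.25 to 1.03 and Cish from -0.085 to 1.67. Between unstimulated brain and stimulated spleen, Cish ran from -0.10 to 0.49. With age, Socs2 ran from -1.10 to 1.07, Socs3 from -0.099 to 0.12, Cish from -1.38 to 0.24, Pim1 from -0.35 to 0.65 and Pim2 from -2.09 to 0.98. Between sexes in unstimulated brain, Socs1 ran from -1.23 to 0.19, Socs2 from -3.25 to 0.30 and Pim2 from -0.29 to 1.04. Between sexes in stimulated brain, Socs1 ran from -0.47 to 1.75, Socs3 from -1.28 to 0.53, Cish from -0.48 to 1.47 and Pim1 from -1.53 to 0.21. In the interaction of tissue, Socs1 ran from -1.09 to 1.09. In the interaction of sex, Socs2 ran from -0.30 to 3.17, Cish from -0.50 to 1.24 and Pim1 from -0.51 to 1.22.

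No paired analysis was possible because each replicate number in the titles belongs to 1 library, so the groups share none. Depth limits stimulated brain: 3 counts were worth up to 3.19 CPM there and at most 0.398 CPM in every other group.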
